A study of Mus musculus with 11 samples.

Results

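Imprinted genes are genes of which mainly the copy inherited from 1 parent is transcribed. The account below covers 40 of them, chosen by symbol from the 24411 gene symbols listed in every count file and arranged here in 16 chromosomal domains. They were measured by RNA-seq in 11 libraries from mice aged 8 to 10 weeks, in a study of the circadian clock in the corpus callosum and the subventricular zone. The corpus callosum is the myelinated tract between the hemispheres, and the subventricular zone is the layer beside the lateral ventricles that holds neural stem cells. Wild-type callosum gave 3 libraries and callosum of mice labelled Bmal1-/- gave 2, each from dissected tissue. Wild-type neurospheres and neurospheres labelled Bmal1-/- gave 3 libraries each. Neurospheres are floating balls of stem and progenitor cells, here grown from subventricular zone cells for 1 week in medium that held EGF at 20 ng/ml and heparin at 2 ug/ml. Bmal1 is the transcription factor that pairs with CLOCK in the circadian clock. The labels do not give the strain, the Bmal1 allele or the sex. They also do not say if replicates are separate animals or cultures, so a p-value here covers the spread among libraries, which may be technical.

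Imprinting is set in the germ line as DNA methylation at control regions, which then decides in the embryo which parental copy of the genes nearby is transcribed. Many imprinted genes act on growth, among them the growth factor gene Igf2 and its clearance receptor Igf2r, and many are active in the developing brain. In neural stem cells and neurons some of them switch to other promoters or to expression from both copies. The counts analysed here do not separate the parental copies, so every value below is the sum over both.

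Gene counts summed to 17450270 to 19717848 per library. Reads split about evenly between the strands, with 49.6% to 50.8% on the first, so transcripts that overlap on opposite strands could not be separated in these unstranded libraries. The level of a gene is its CPM, the count relative to the scaled size of the library. A count of 0 in 1 library allows up to 3 counts, counting error only. That is 0.152 to 0.172 CPM on library sizes before scaling. On the scaled sizes used for the levels, 3 counts were 0.131 CPM in Bmal1-/- neurosphere replicate 2. They were 0.202 CPM in wild-type callosum replicate 2, the lowest of callosum, and slightly more in the other callosum libraries. The gene targeted in the Bmal1-/- mice, listed as Arntl, was at 37.9 to 48.8 CPM in all neurosphere libraries and 32.6 to 40.8 CPM in all callosum libraries. Its log2 fold change was -0.01 ± 0.17 (SE, edgeR adjusted p = 0.983) in neurospheres and 0.03 ± 0.14 (SE, edgeR adjusted p = 0.943) in callosum, so the whole-gene count gives no check of the labels, and Bmal1-/- below stands for the libraries so labelled. The neurosphere libraries carried the stem and progenitor markers Nes and Sox2, and 6 such markers summed to 3388 to 5249 CPM against 258 to 375 CPM in callosum. Myelin markers such as Mbp and Mog summed over 6 genes to 21201 to 33237 CPM in callosum. The callosum libraries also held neuron markers, led by Snap25, Rbfox3 and Syt1, at a summed 8397 to 12005 CPM over 8 genes, against 198 to 289 CPM in neurospheres. Striatal neuron markers summed to 763 to 2665 CPM in callosum, with the top value in wild-type replicate 2. The neurosphere library Bmal1-/- replicate 1 stood apart, with 22.6% of its reads unmapped. It enters every Bmal1-/- neurosphere result. Many of these are given with and without it, here or with that library's values near the end.

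**Figure D1:**
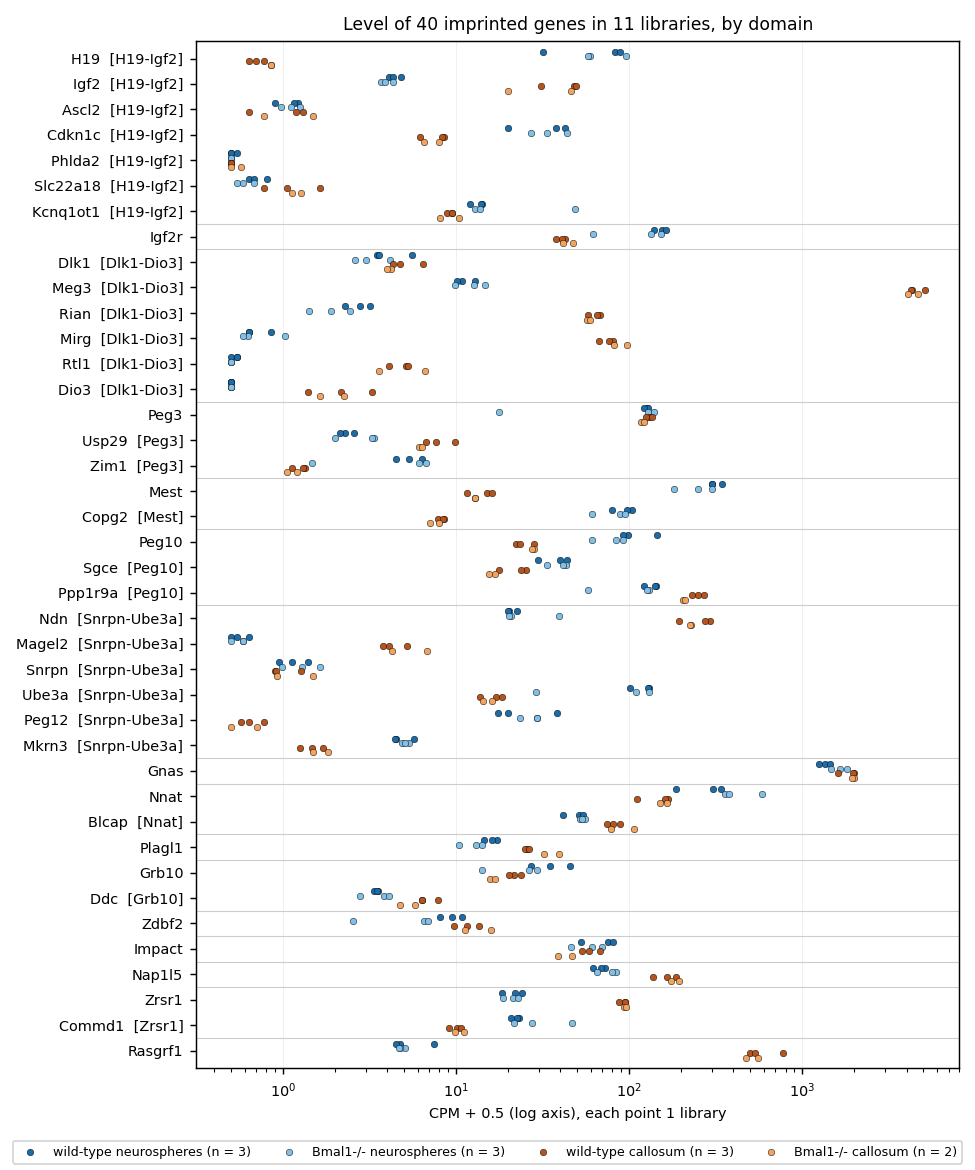
Level of each of the 40 imprinted genes in each of the 11 libraries, as CPM plus 0.5 on a log axis, with genes grouped by domain and 1 point per library. The callosum points of Meg3, Mirg and Rasgrf1 lie far to the right of the neurosphere points, those of H19, Peg12 and Mest far to the left, and the points of the 2 genotypes lie close together for most genes.

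The widest differences among the imprinted genes were between the 2 sources of RNA. Of the 38 tested in wild type, 17 were higher in callosum than in neurospheres and 15 lower (edgeR adjusted p under 0.05), where 42.0% and 43.8% of all 14733 genes tested were called in those directions. In libraries labelled Bmal1-/-, which share no library with the wild-type comparison, 16 of 38 were higher and 13 lower, beside 35.1% and 37.5% of all 14883 genes tested. Calls of at least 4-fold numbered 20 of 38 in wild type, beside 40.8% of all genes, and 17 of 38 in Bmal1-/-, beside 41.3%. The shares of the imprinted genes called are thus near those of all genes. Called in the same direction in both genotypes were 28 members, 15 higher and 13 lower in callosum, and no member was called in opposite directions. The share of all genes called alike in both genotypes was not taken. This joint count thus does not set the members apart from other genes. The median absolute log2 fold change was 2.09 in wild type (all genes 1.59) and 1.61 in Bmal1-/- (all genes 1.62), and setting genes with no count at their bounds left these medians at 2.09 and 1.61. In whole tissue and cultures, fewer cells of a type and less RNA per cell cannot be told apart. Source and library preparation cannot be told apart either, since the unmapped share was 7.77% to 8.46% in callosum and 13.7% to 22.6% in neurospheres.

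**Figure D2:**
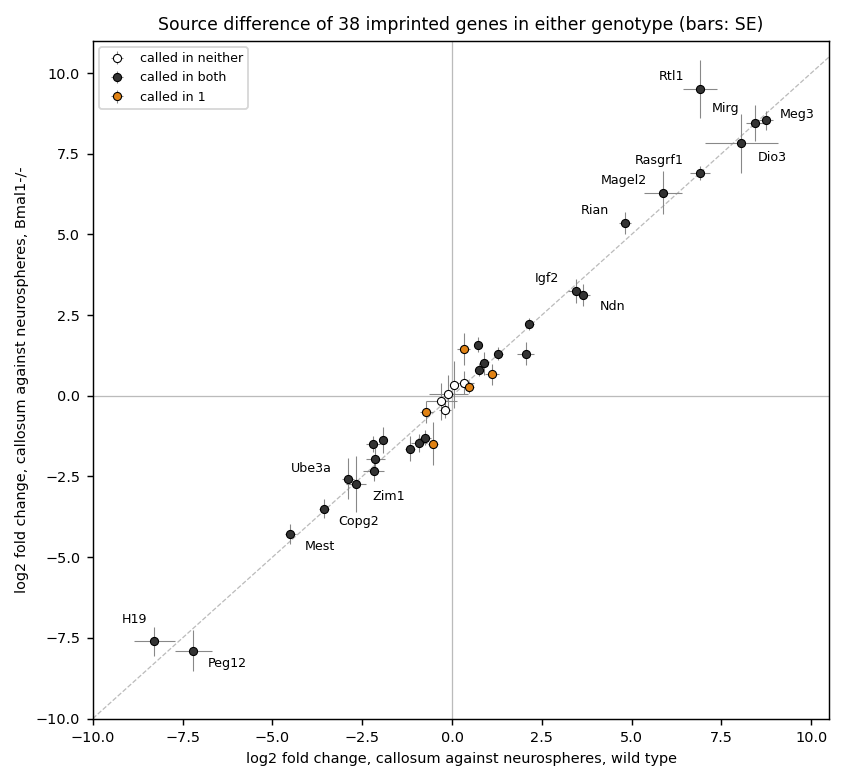
Log2 fold change of callosum against neurospheres in wild type (x axis) and in Bmal1-/- (y axis) for the 38 imprinted genes tested in both, with bars for the SE and a dashed line of equality. Meg3, Mirg, Dio3, Rtl1, Rasgrf1 and Magel2 lie at the upper end and H19, Peg12, Mest and Copg2 at the lower end in both genotypes. Fitted values of Dio3, Rtl1, Magel2 and Peg12 rest on groups with 0 to 7 counts.

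The Dlk1-Dio3 domain on chromosome 12 was the domain with the largest number of members higher in callosum, 5 of 6 in either genotype. Meg3 (chr12:109540996-109571729, plus strand), Rian and Mirg are maternally expressed non-coding RNAs that host clusters of microRNAs and small nucleolar RNAs, while Dlk1, Rtl1 and Dio3 are paternally expressed protein-coding genes. Between the start of Meg3 and the end of Mirg, RefSeq (GRCm38.p6) places 111 mature microRNAs, 105 of them on the plus strand. Of these, 18 share their seed with another in 9 pairs. Examples within Meg3 and Mirg and opposite Rtl1 are printed as examples of what transcripts of the domain carry; capitals mark the seed, bases 2 to 8, and no seed is shared among the sequences printed here or below. The microRNAs themselves were not measured.
miR-770-5p, within Meg3: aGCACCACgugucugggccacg
miR-127-3p, opposite Rtl1: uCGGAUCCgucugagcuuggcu
miR-433-3p, opposite Rtl1: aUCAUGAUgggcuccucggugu
miR-377-3p, within Mirg: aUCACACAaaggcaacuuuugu
miR-410-3p, within Mirg: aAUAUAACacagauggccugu

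Meg3, the long non-coding RNA at the head of the maternal transcripts, was at 12.4, 10.3 and 9.63 CPM in wild-type neurospheres and 14.3, 12.2 and 9.43 CPM in Bmal1-/- neurospheres. In callosum it was at 5094, 4324 and 4224 CPM in wild type and 4097 and 4680 CPM in Bmal1-/-. Every callosum library was thus far above every neurosphere library, by 8.73 ± 0.19 on the log2 scale (SE, edgeR adjusted p = 2.07e-09) in wild type and 8.54 ± 0.29 (SE, edgeR adjusted p = 7.08e-06) in Bmal1-/-. Per kb of its longest transcript, Meg3 averaged 313 CPM in wild-type callosum, below Gnas at 470 CPM per kb and above the other 38 members.

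Mirg, the host at the far end of the cluster, was at 0.358, 0.136 and 0.133 CPM in wild-type and 0.531, 0.131 and 0.0877 CPM in Bmal1-/- neurospheres, levels of a few counts. In callosum it reached 80.3, 76.0 and 66.5 CPM in wild type and 81.0 and 97.0 CPM in Bmal1-/-. The log2 fold change was 8.44 ± 0.25 (SE, edgeR adjusted p = 4.46e-09) and 8.46 ± 0.56 (SE, edgeR adjusted p = 3.57e-05). It rose to 9.04 without wild-type neurosphere replicate 1 and to 9.58 without Bmal1-/- neurosphere replicate 1, the neurosphere libraries with the most Mirg. Rian, which lies between Meg3 and Mirg, ranged from 0.921 to 2.68 CPM in neurospheres and from 56.8 to 66.9 CPM in callosum, a log2 fold change of 4.81 ± 0.17 (SE) in wild type and 5.36 ± 0.34 (SE) in Bmal1-/-, called in both.

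The protein-coding genes of the domain were low. Dio3, the deiodinase that inactivates thyroid hormone, had no count in any of the 6 neurosphere libraries. In callosum Dio3 was at 2.78, 1.68 and 0.90 CPM in wild type and 1.13 and 1.75 CPM in Bmal1-/-. With a floor of 3 counts over each neurosphere group, it was at least 39.9-fold higher in wild-type and at least 32.8-fold higher in Bmal1-/- callosum, and both comparisons were called. Rtl1, a retrotransposon-derived gene transcribed opposite several microRNAs, had 0.0447, 0 and 0.0444 CPM in wild-type neurospheres and 0 in each Bmal1-/- one. Its callosum values were 4.66, 4.77 and 3.60 CPM in wild type and 3.10 and 6.16 CPM in Bmal1-/-. That is a ratio of 146 (95% counting interval 39.8 to 1212, from 190 and 2 counts) in wild type and at least 106-fold in Bmal1-/-. Of the reads that fell on Rtl1 in the strand-specific columns, 37.2% in callosum were left out of the unstranded count as ambiguous. In neurospheres it was 60% of 5 reads. These unstranded libraries cannot tell Rtl1 reads from those of RNA on the other strand, so a rise of the Rtl1 transcript itself is not shown. Dlk1, the Notch-like ligand that names the domain, was the member not called: it ranged from 2.10 to 5.10 CPM in neurospheres and 3.50 to 5.98 CPM in callosum, and its groups overlapped.

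The H19-Igf2 domain on chromosome 7 split. H19 (chr7:142575530-142578146, minus strand), a maternally expressed long non-coding RNA, was at 31.2, 82.2 and 87.8 CPM in wild-type neurospheres and 96.0, 58.7 and 57.5 CPM in Bmal1-/- neurospheres. In callosum it was near the detection floor, at 0.278, 0.202 and 0.139 CPM in wild type and 0.352 and 0.350 CPM in Bmal1-/-, or 9 and 10 counts in all. The lowest neurosphere library was still far above every callosum library, with log2 fold changes of -8.29 ± 0.58 (SE, edgeR adjusted p = 6.05e-07) in wild type and -7.61 ± 0.46 (SE, edgeR adjusted p = 2.66e-05) in Bmal1-/-. H19 is the precursor of a microRNA whose mature arms are printed because the host has the largest fall of the 38 members tested in wild type; capitals mark the seed.
miR-675-5p, within H19: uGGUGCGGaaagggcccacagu
miR-675-3p, within H19: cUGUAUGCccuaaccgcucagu

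Igf2, the paternally expressed growth factor next to H19, went the other way. It was at 3.58, 3.84 and 4.30 CPM in wild-type and 3.19, 3.84 and 3.38 CPM in Bmal1-/- neurospheres, against 47.2, 48.6 and 30.4 CPM in wild-type and 19.4 and 45.5 CPM in Bmal1-/- callosum. All callosum libraries were higher, and the spread among them was wide. The log2 fold change was 3.44 ± 0.21 (SE, edgeR adjusted p = 2.23e-07) in wild type and 3.25 ± 0.39 (SE, edgeR adjusted p = 3.40e-04) in Bmal1-/-, the latter falling to 2.50 without Bmal1-/- callosum replicate 2. Markers of pericytes, fibroblasts and meninges, cells known for Igf2 in brain, were listed too. Of 8 tested in wild type, 7 were higher in callosum, beside 42.0% of all genes. In Bmal1-/- 6 of 7 were higher, beside 35.1%. The list of 9 summed to 166 to 211 CPM in wild-type callosum, 132 to 175 CPM in Bmal1-/- callosum and 10.7 to 14.7 CPM in neurospheres. Among the defining markers of that list, Col1a1 was at 19, 16.7 and 6.23 CPM in wild-type and 7.12 and 21.6 CPM in Bmal1-/- callosum. Dcn was near 0, at 0.282 to 1.28 CPM, in callosum. Choroid plexus markers, led by Ttr, summed to 23.5 to 184 CPM in wild-type and 10.6 to 14.4 CPM in Bmal1-/- callosum, against 3.09 to 8.63 CPM in neurospheres. Their part in the Igf2 difference was not tested. In GENCODE M21, 75.9% of the 50-base stretches of Igf2 also occur in transcripts of Gm49394, whose exons overlap those of Igf2 on the same strand. Gm49394 is not among the gene symbols counted.

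The other members of the domain are maternally expressed apart from Kcnq1ot1. Cdkn1c, the cyclin-dependent kinase inhibitor p57, ranged from 19.4 to 43.2 CPM in neurospheres and 5.71 to 8.06 CPM in callosum, called lower in both genotypes (log2 fold change -2.18 ± 0.29 and -2.34 ± 0.30, SE). Among neurospheres its lowest library was wild-type replicate 1, as for H19. Kcnq1ot1, a paternally expressed antisense RNA, was at 11.5 to 13.6 CPM in 5 neurosphere libraries, 48.5 CPM in Bmal1-/- replicate 1 and 7.54 to 9.94 CPM in callosum. It was called lower in wild-type callosum alone (-0.53 ± 0.15, SE, edgeR adjusted p = 0.00660); in Bmal1-/- the difference was -1.49 ± 0.66 (SE, edgeR adjusted p = 0.0814), and it was called at -0.56 ± 0.19 (SE, edgeR adjusted p = 0.0249) without replicate 1. Ascl2, a trophoblast transcription factor, stayed between 0.139 and 0.987 CPM everywhere and was called in neither. Slc22a18, a transporter, had 70 counts over all libraries and Phlda2, a growth regulator of placenta, had 2, so that Slc22a18 was tested for genotype in callosum and for the interaction alone, and Phlda2 in no comparison. Igf2r on chromosome 17, which takes IGF2 to the lysosome, was lower in callosum, at 37.2 to 46.7 CPM against 133 to 162 CPM in 5 neurosphere libraries and 61.7 CPM in Bmal1-/- replicate 1 (log2 fold change -1.91 ± 0.10 in wild type and -1.38 ± 0.40 in Bmal1-/-, SE, called in both).

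In the Snrpn-Ube3a domain on chromosome 7, the region lost in Prader-Willi and Angelman syndromes in humans, members moved in both directions. Magel2 (chr7:62376979-62381640, plus strand), a paternally expressed MAGE protein, was at 0, 0.136 and 0.0444 CPM in wild-type and 0, 0.0873 and 0.0877 CPM in Bmal1-/- neurospheres. In callosum it was at 3.27, 4.70 and 3.60 CPM in wild type and 6.27 and 3.78 CPM in Bmal1-/-. Every callosum library was above the neurospheres, by 5.88 ± 0.53 on the log2 scale (SE, edgeR adjusted p = 3.72e-06) in wild type and 6.29 ± 0.66 (SE, edgeR adjusted p = 1.95e-04) in Bmal1-/-. The wild-type value was 7.04 without neurosphere replicate 2, which held most of the few neurosphere counts. Ndn, the MAGE relative necdin that restrains neural proliferation, was also higher in callosum, at 193 to 293 CPM against 19.4 to 38.6 CPM (3.66 ± 0.17 and 3.12 ± 0.34, SE, called in both).

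Peg12 (chr7:62461871-62464510, minus strand), a paternally expressed relative of the FRAT regulators of Wnt signalling, lies close to Ndn and Magel2 and showed the reverse. It was at 37.9, 19.5 and 17.0 CPM in wild-type neurospheres and 28.9, 28.9 and 22.8 CPM in Bmal1-/- ones, and at 0.0695, 0.134 and 0.277 CPM in wild-type and 0 and 0.210 CPM in Bmal1-/- callosum. All callosum libraries were at a few counts. The log2 fold change was -7.20 ± 0.52 (SE, edgeR adjusted p = 7.87e-07) in wild type, or -7.82 without callosum replicate 3. In Bmal1-/- the ratio was 255 in favour of neurospheres (95% counting interval 87.2 to 1238, from 1837 and 3 counts, edgeR adjusted p = 6.97e-05), and those 3 counts all lay in replicate 2. Mkrn3, the makorin ligase beside it, was also lower in callosum, at 0.762 to 1.33 CPM against 3.95 to 5.20 CPM (-2.13 ± 0.27 and -1.96 ± 0.34, SE, called in both).

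Ube3a (chr7:59228750-59310837, plus strand), the ubiquitin ligase whose maternal copy alone is used in mature neurons, was at 101, 130 and 128 CPM in wild-type neurospheres and 28.5, 108 and 130 CPM in Bmal1-/- ones. In callosum it fell to 17.9, 13.3 and 16.6 CPM in wild type and 13.9 and 15.5 CPM in Bmal1-/-. The groups did not overlap, and Bmal1-/- neurosphere replicate 1 lay nearest to the callosum values. The log2 fold change was -2.90 ± 0.15 (SE, edgeR adjusted p = 1.02e-07) in wild type and -2.57 ± 0.64 (SE, edgeR adjusted p = 0.00944) in Bmal1-/-, where the call was lost without callosum replicate 1 (edgeR adjusted p = 0.0783) or replicate 2 (edgeR adjusted p = 0.0676). Without neurosphere replicate 1 the Bmal1-/- value was -3.02 ± 0.15 (SE, edgeR adjusted p = 5.15e-07). Snhg14, the paternally expressed RNA known to run antisense across Ube3a, was looked at after its values were seen: it was at 16.0 to 22.7 CPM in neurospheres and had 4 counts in all 5 callosum libraries together. Snrpn, whose product is a splicing protein of neurons, stayed at 0.403 to 1.14 CPM in every library and was not called. Snurf, an open reading frame inside Snrpn's own exons, was listed at 0 in all libraries. STAR leaves out reads that fall on exons of both, so the level of Snrpn is uncertain.

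Mest and Copg2 on chromosome 6, whose last exons overlap tail to tail by 912 bases, were both lower in callosum. Mest (chr6:30733506-30748466, plus strand), a paternally expressed hydrolase of mesoderm and growing tissue, was at 302, 343 and 300 CPM in wild-type neurospheres and 181, 248 and 302 CPM in Bmal1-/- ones. In callosum it was at 14.5, 11.1 and 15.6 CPM in wild type and 12.4 and 12.3 CPM in Bmal1-/-. The lowest neurosphere library was over the highest callosum library by a wide margin, with log2 fold changes of -4.51 ± 0.15 (SE, edgeR adjusted p = 8.15e-09) and -4.28 ± 0.31 (SE, edgeR adjusted p = 4.62e-05).

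Copg2 (chr6:30747554-30896815, minus strand), a subunit of the COPI vesicle coat, was at 78.7, 103 and 97.2 CPM in wild-type and 60.4, 88.4 and 93.9 CPM in Bmal1-/- neurospheres, and at 7.99, 7.32 and 7.89 CPM in wild-type and 7.47 and 6.58 CPM in Bmal1-/- callosum. Again no callosum library reached the neurospheres (-3.57 ± 0.14, SE, edgeR adjusted p = 1.73e-08, and -3.50 ± 0.30, SE, edgeR adjusted p = 8.35e-05). Because of the overlap, 18790 reads were left out for both genes, 60.4% of those on Copg2 and 32.7% of those on Mest in the strand-specific columns. With those reads counted in both genes the calls held. Mest also hosts a microRNA, printed because its host was called lower in callosum in both genotypes; capitals mark the seed.
miR-335-5p, within Mest: uCAAGAGCaauaacgaaaaaugu

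In the Peg3 domain on chromosome 7, 3 neighbours took 3 courses. Peg3 (chr7:6703892-6730462, minus strand), a paternally expressed zinc finger protein, was at 121 to 139 CPM in 5 neurosphere libraries and at 116 to 134 CPM in all callosum libraries. It was called in neither source comparison, with log2 fold changes of 0.06 ± 0.09 and 0.35 ± 0.74 (SE), the wide error of the second coming with Bmal1-/- neurosphere replicate 1 at 17.2 CPM. Usp29, a ubiquitin protease gene that starts beside Peg3 on the other strand, was higher in callosum, at 5.64 to 9.34 CPM against 1.5 to 2.84 CPM (2.05 ± 0.23 and 1.30 ± 0.36, SE, called in both). Reads left out as ambiguous took 19% of those on Peg3 and 33.3% of those on Usp29.

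Zim1 (chr7:6674444-6696540, minus strand), the maternally expressed zinc finger gene of the domain, was lower in callosum. It was at 3.98, 5.83 and 4.88 CPM in wild-type and 0.973, 5.63 and 6.22 CPM in Bmal1-/- neurospheres, against 0.834, 0.806 and 0.623 CPM in wild-type and 0.705 and 0.560 CPM in Bmal1-/- callosum. Only Bmal1-/- neurosphere replicate 1 came near the callosum values. The log2 fold change was -2.67 ± 0.28 (SE, edgeR adjusted p = 1.09e-05) in wild type and -2.72 ± 0.86 (SE, edgeR adjusted p = 0.0256) in Bmal1-/-, where it lost its call without callosum replicate 1 (edgeR adjusted p = 0.115) or replicate 2 (edgeR adjusted p = 0.140). Without neurosphere replicate 1 it was -3.21 ± 0.31 (SE, edgeR adjusted p = 2.09e-05).

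Rasgrf1 on chromosome 9 (89909508-90026979, plus strand), a paternally expressed exchange factor that couples calcium to Ras in neurons, had the smallest SE of the 6 widest rises in Bmal1-/-. It was at 4.25, 4.02 and 6.97 CPM in wild-type and 4.56, 4.28 and 4.21 CPM in Bmal1-/- neurospheres, and at 777, 498 and 531 CPM in wild-type and 551 and 472 CPM in Bmal1-/- callosum. Each callosum library was far above each neurosphere library, with log2 fold changes of 6.90 ± 0.29 (SE, edgeR adjusted p = 2.19e-08) and 6.90 ± 0.22 (SE, edgeR adjusted p = 6.50e-06). All 8 neuron markers of the list were higher in callosum in either genotype, as Rasgrf1, Meg3 and Ndn were; their part in these differences was not tested.

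In 2 pairs a small paternally expressed gene lies inside the span of a maternally expressed host on the other strand, and each pair moved in opposite directions between sources. Nnat, which encodes the membrane protein neuronatin, was lower in callosum (-0.91 ± 0.23 and -1.47 ± 0.28, SE), while its host Blcap was higher (0.75 ± 0.13 and 0.81 ± 0.21, SE). Zrsr1, an intronless splicing factor gene, was higher in callosum, at 87.3 to 95.6 CPM against 17.9 to 23.6 CPM (2.14 ± 0.13 and 2.23 ± 0.20, SE). Its host Commd1, a regulator of copper handling, was lower, at 8.60 to 10.6 CPM against 20.3 to 46.1 CPM (-1.18 ± 0.13 and -1.64 ± 0.38, SE). All 8 of these differences were called.

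The remaining members lie in several domains. In the Peg10 domain on chromosome 6, Peg10, a retrotransposon-derived gene, was lower in callosum (-2.19 ± 0.19 and -1.50 ± 0.25, SE), as was its neighbour Sgce, which encodes epsilon-sarcoglycan (-0.76 ± 0.18 and -1.30 ± 0.23, SE). Ppp1r9a, which encodes the synaptic scaffold neurabin, was higher (0.90 ± 0.11 and 1.00 ± 0.35, SE). Nap1l5, an intronless nucleosome assembly gene, was higher at 137 to 193 CPM against 61.4 to 83.1 CPM (1.29 ± 0.13 and 1.30 ± 0.20, SE), and so was Plagl1, a zinc finger regulator of other imprinted genes (0.72 ± 0.12 and 1.57 ± 0.23, SE). All of these were called in both genotypes. Gnas, which encodes the stimulatory G protein alpha subunit, Ddc, the decarboxylase of dopamine and serotonin synthesis, and Grb10, an adaptor that dampens insulin and IGF receptors, were called in wild type alone, with log2 fold changes of 0.47 ± 0.13, 1.12 ± 0.20 and -0.72 ± 0.18 (SE). In Bmal1-/- these were 0.28 ± 0.19, 0.66 ± 0.33 and -0.51 ± 0.35 (SE), and without neurosphere replicate 1 Gnas and Grb10 were called there too. Zdbf2, a zinc finger gene of body growth, was called in Bmal1-/- alone (1.45 ± 0.49 against 0.33 ± 0.19 in wild type, SE), and Impact, an inhibitor of the translation kinase GCN2, with all libraries in neither (-0.21 ± 0.17 and -0.45 ± 0.25, SE). The difference between genotypes in these source effects is the interaction tested below, which passed for no member.

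By the parental copy that is known to be expressed, 11 of 23 paternally expressed members tested were higher and 7 lower in wild-type callosum, with a median log2 fold change of 0.34, beside 42.0% and 43.8% of all genes and a median of -0.06. Of 13 maternally expressed members tested, 5 were higher and 7 lower, with a median of -1.18. In Bmal1-/- the counts were 11 higher and 6 lower of 23, and 5 higher and 7 lower of 13, beside 35.1% and 37.5% of all genes. The other 2 members tested, Gnas and Grb10, were classed under both copies. They added 1 higher and 1 lower in wild type, and neither was called in Bmal1-/- with all libraries. The domains thus held genes of either kind on either side: the maternal Meg3 rose with the paternal Dio3, and the maternal H19 fell with the maternal Cdkn1c.

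The study's main contrast, Bmal1-/- against wild type, called none of the imprinted genes. In neurospheres 0 of 34 tested members passed an edgeR adjusted p of 0.05, beside 0.00716% of all 13968 genes, and 1 of 34 had an unadjusted p under 0.05, beside 3.02%. DESeq2 called 0 of 38, beside 0.187% of all genes. In callosum 0 of 37 tested members passed in edgeR, beside 0.909% of all 14198 genes; 5 of 37 had an unadjusted p under 0.05, beside 13.9%, and DESeq2 called 0 of 33, beside 2.34%. The median absolute log2 fold change of the members was 0.29 in neurospheres (all genes 0.22) and 0.20 in callosum (all genes 0.17). The median SE of a member was 0.29 in neurospheres and 0.17 in callosum, and differences of that order would not have been detected. Larger ones were not called either, such as Plagl1 in callosum at 0.50 ± 0.12 (log2, SE, edgeR adjusted p = 0.126). Kcnq1ot1 in neurospheres at 0.95 ± 0.51 (log2, SE, edgeR adjusted p = 0.798) was another. The absence of calls thus does not show that the genotypes were alike.

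**Figure D3:**
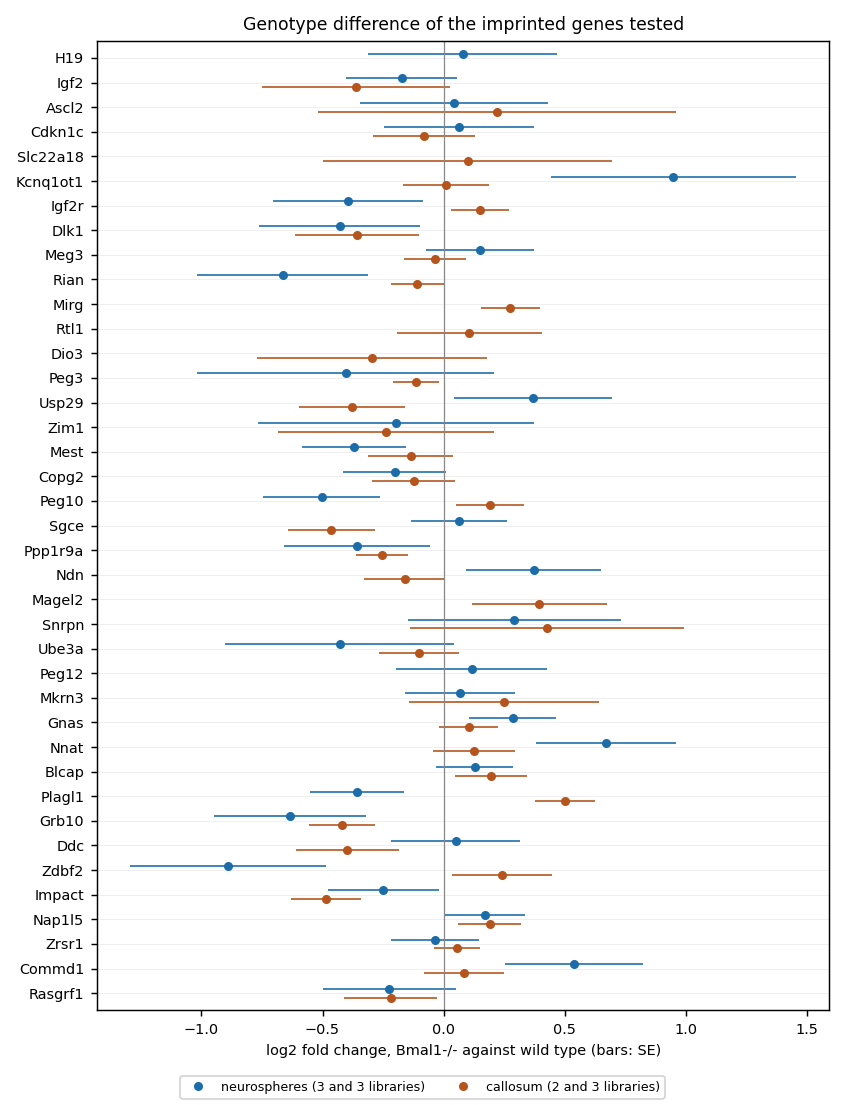
Log2 fold change of Bmal1-/- against wild type for each imprinted gene tested, in neurospheres (blue, 3 and 3 libraries) and callosum (orange, 2 and 3 libraries), with bars for the SE. All points lie between -0.89 and 0.95, and some members, such as Plagl1, Zdbf2, Peg10 and Usp29, have points on opposite sides of 0 in the 2 sources; no difference passed the test.

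In neurospheres the 3 smallest p-values belonged to Nnat, Zdbf2 and Peg10. Nnat (chr2:157560078-157562525, plus strand) was at 187, 306 and 340 CPM in wild type and 586, 359 and 379 CPM in Bmal1-/-, and at 111, 166 and 161 CPM in wild-type and 150 and 166 CPM in Bmal1-/- callosum. All Bmal1-/- neurospheres were above all wild-type ones, and replicate 1 was the highest. The log2 fold change was 0.67 ± 0.29 (SE, edgeR adjusted p = 0.798) and 0.41 ± 0.23 (SE, edgeR adjusted p = 0.9997) without that library.

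Zdbf2 (chr1:63200358-63314576, plus strand) was at 7.60, 10.3 and 8.96 CPM in wild-type and 2.04, 6.07 and 6.40 CPM in Bmal1-/- neurospheres, and at 9.24, 11 and 13.1 CPM in wild-type and 10.7 and 15.3 CPM in Bmal1-/- callosum. The Bmal1-/- neurospheres were all lower than the wild-type ones, by -0.89 ± 0.40 (log2, SE, edgeR adjusted p = 0.798), or -0.52 ± 0.19 without replicate 1. Peg10 (chr6:4747306-4760517, plus strand) was at 144, 98.0 and 91.8 CPM in wild-type and 60.7, 91.7 and 83.6 CPM in Bmal1-/- neurospheres, and at 21.7, 23.0 and 27.8 CPM in wild-type and 27.8 and 26.9 CPM in Bmal1-/- callosum. Its neurosphere groups touched without overlapping, with 91.8 CPM the lowest wild-type and 91.7 CPM the highest Bmal1-/- value, a log2 difference of -0.50 ± 0.24 (SE, edgeR adjusted p = 0.798), or -0.35 ± 0.20 without replicate 1. In all, the groups did not overlap for 5 of 34 members, Gnas and Nnat higher and Peg10, Plagl1 and Zdbf2 lower in Bmal1-/-, beside 12% of all genes.

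In callosum the 3 smallest p-values belonged to Plagl1, Impact and Grb10. Plagl1 (chr10:13090832-13131694, plus strand) was at 25.1, 24.5 and 26.0 CPM in wild-type and 31.8 and 38.9 CPM in Bmal1-/- callosum. In neurospheres it was at 16.7, 13.9 and 15.6 CPM in wild type and 9.95, 13.6 and 12.5 CPM in Bmal1-/-. The groups did not overlap in either source and lay in opposite order: Bmal1-/- above wild type in callosum by 0.50 ± 0.12 (log2, SE, edgeR adjusted p = 0.126) and below it in neurospheres by -0.36 ± 0.19 (SE, edgeR adjusted p = 0.798). The difference between these 2 effects was 0.84 ± 0.24 (SE), with an unadjusted p = 0.00474 and an edgeR adjusted p = 0.799, and did not pass.

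Impact was at 52.8, 67.7 and 58.0 CPM in wild-type and 46.1 and 38.1 CPM in Bmal1-/- callosum, and at 52.1, 75.0 and 80.7 CPM in wild-type and 45.4, 60.4 and 69.1 CPM in Bmal1-/- neurospheres. The callosum groups did not overlap and those of neurospheres did, with a callosum difference of -0.49 ± 0.14 (log2, SE, edgeR adjusted p = 0.202). Grb10 (chr11:11930499-12037428, minus strand) was at 21.1, 23.1 and 19.7 CPM in wild-type and 15.3 and 16.2 CPM in Bmal1-/- callosum, and at 26.5, 34.6 and 44.9 CPM in wild-type and 13.6, 28.9 and 25.7 CPM in Bmal1-/- neurospheres. It was lower in Bmal1-/- in each callosum library, by -0.42 ± 0.14 (log2, SE, edgeR adjusted p = 0.236), and by -0.64 ± 0.31 (SE, edgeR adjusted p = 0.798) in neurospheres, where the groups overlapped. In all, callosum groups did not overlap for 10 of 37 members, beside 32.5% of all genes: Mirg and Plagl1 were higher and Dlk1, Peg3, Usp29, Sgce, Ppp1r9a, Grb10, Ddc and Impact lower in Bmal1-/-. Of 7 striatal neuron and 4 choroid plexus markers tested, 0 were called for genotype in callosum in edgeR, and 0 and 2 had an unadjusted p under 0.05. The summed striatal markers overlapped, at 808 to 2665 CPM in wild-type and 763 to 994 CPM in Bmal1-/- callosum, while those of choroid plexus did not, at 23.5 to 184 and 10.6 to 14.4 CPM. Their part in these differences was not tested.

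The interaction of genotype with source, which asks whether the genotype difference is the same in callosum and neurospheres, passed for 0 of 39 members in edgeR, beside 0.0131% of all 15322 genes. DESeq2 likewise called 0 of 39, beside 0.223%.

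Since BMAL1 binds with CLOCK to the E-box CACGTG, the 300-base windows around RefSeq gene starts (250 bases before to 50 after, GRCm38.p6) were searched for those letters, which read the same on both strands. A window was found for 34 of the 40 members. The motif was in the windows of Plagl1, Ppp1r9a and Igf2r, 3 of 34, beside 8.09% of the 27025 genes with a window and 7.15% of all 32851 windows. These 3 are printed because the factor targeted in the Bmal1-/- mice is known to bind these letters; capitals mark the motif, and Igf2r holds it in 2 places. A match is a description of the letters and not a binding site.
Plagl1, chr10:13090582-13090881, plus strand: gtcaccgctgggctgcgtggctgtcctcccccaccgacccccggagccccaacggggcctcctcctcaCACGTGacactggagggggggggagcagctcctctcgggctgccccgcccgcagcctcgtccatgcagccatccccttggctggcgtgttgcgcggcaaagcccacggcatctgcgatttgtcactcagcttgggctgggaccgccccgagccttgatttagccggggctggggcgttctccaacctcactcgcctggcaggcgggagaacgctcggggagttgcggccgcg
Ppp1r9a, chr6:4903061-4903360, plus strand: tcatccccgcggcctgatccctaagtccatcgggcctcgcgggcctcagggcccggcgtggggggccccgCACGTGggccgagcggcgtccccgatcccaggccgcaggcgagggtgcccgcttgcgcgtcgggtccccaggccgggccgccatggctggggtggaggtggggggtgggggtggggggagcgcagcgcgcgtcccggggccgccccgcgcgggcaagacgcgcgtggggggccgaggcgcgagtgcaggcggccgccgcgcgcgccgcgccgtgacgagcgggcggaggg
Igf2r, chr17:12769657-12769956, minus strand: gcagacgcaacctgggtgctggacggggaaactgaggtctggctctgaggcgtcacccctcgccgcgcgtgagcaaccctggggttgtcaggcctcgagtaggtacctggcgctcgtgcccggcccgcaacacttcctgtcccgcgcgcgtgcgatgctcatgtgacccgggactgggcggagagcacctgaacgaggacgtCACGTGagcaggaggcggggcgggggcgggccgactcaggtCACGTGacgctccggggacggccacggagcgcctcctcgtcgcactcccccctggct
Of these 3, Ppp1r9a differed by -0.26 ± 0.11 (log2, SE) in callosum and -0.36 ± 0.30 in neurospheres, and Igf2r by 0.15 ± 0.12 and -0.39 ± 0.31, none called. The motif TGCCGC, found in the binding site of the zinc finger protein ZFP57 that keeps imprints methylated, was in the windows of 12 of 34 members on either strand, beside 13.1% of all genes with a window. Counted by window, it was in 13 of 51 windows of members, beside 11.6% of all 32851 windows. In Plagl1, which holds both motifs, they do not overlap. The 12 were Commd1, Copg2, Grb10, Igf2, Meg3, Mest, Nap1l5, Nnat, Plagl1, Snrpn, Zdbf2 and Zim1.

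Genes that act with the imprinted genes were listed beside them. Of 41 further imprinted genes, 0 of 29 tested were called for genotype in neurospheres and 0 of 31 in callosum; between sources 14 were higher and 15 lower of 32 tested in wild type, and 15 higher and 11 lower of 33 in Bmal1-/-. The shares over all genes, which apply to every list here, were 42.0% higher and 43.8% lower in wild type and 35.1% and 37.5% in Bmal1-/-. The list of 23 regulators that set or keep imprints, such as DNA methyltransferases, TET enzymes and KRAB zinc finger proteins, was mostly lower in callosum: 18 of 21 tested were lower and 1 higher in wild type, with a median log2 fold change of -1.76, and 15 were lower and 1 higher in Bmal1-/-. None of it was called for genotype. The 7 proliferation markers, led by Mki67, Top2a and Ccnb1, were all lower in callosum too, at a summed 23.9 to 33.7 CPM against 820 to 1493 CPM in neurospheres, and their part in the fall of the regulators was not tested.

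Of 15 genes of IGF signalling, 4 were higher and 8 lower of 13 tested in wild-type callosum, and 3 higher and 7 lower in Bmal1-/-. Igfbp2, a secreted binding protein that holds IGF2 and IGF1, was the gene of this list called for genotype. It was at 28.0, 20.5 and 24.9 CPM in wild-type and 44.4 and 41.2 CPM in Bmal1-/- callosum, and at 1156, 1378 and 1465 CPM in wild-type and 2670, 1512 and 1587 CPM in Bmal1-/- neurospheres. The callosum difference was 0.82 ± 0.14 (log2, SE, edgeR adjusted p = 0.0383), with both Bmal1-/- libraries above the wild-type ones, and it was lost without wild-type replicate 2 (adjusted p = 0.0788) or 3 (0.220) or without Bmal1-/- replicate 1 (0.215) or 2 (0.0565), and in 1 model of all 11 libraries (0.435), all in edgeR. The astrocyte marker Aldh1l1 was the marker gene called for genotype: it was lower in Bmal1-/- callosum, at 65.3 and 61.8 CPM against 99.95, 92.0 and 90.6 CPM (-0.55 ± 0.10, log2, SE, edgeR adjusted p = 0.0491). That call was lost without any 1 of the 5 callosum libraries (edgeR adjusted p 0.0993 to 0.220), with RLE scaling (0.0533), with a replicate block (0.0648) and in 1 model of all 11 libraries (0.190). The astrocyte list summed to 1573 to 1782 CPM in wild-type and 1582 to 1752 CPM in Bmal1-/- callosum.

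The library Bmal1-/- neurosphere replicate 1 stood apart in many imprinted genes. Of 34 tested, 11 were above and 14 below all other 5 neurosphere libraries, beside 37.2% and 37.4% of all 13968 genes. Low were Peg3 at 17.2 CPM (121 to 139 in the others), Ube3a at 28.5 CPM (101 to 130), Zim1 at 0.973 CPM (3.98 to 6.22) and Igf2r at 61.7 CPM (133 to 162). High were Kcnq1ot1 at 48.5 CPM (11.5 to 13.6), Commd1 at 46.1 CPM (20.3 to 26.9), Ndn at 38.6 CPM (19.4 to 21.9) and Nnat at 586 CPM (187 to 379). Members with long transcripts tended to be low in it: across genes, which are not independent replicates, Spearman's rho of its log2 ratio to the others with transcript length was -0.47 over 34 members and -0.68 over 13487 genes. Kcnq1ot1, with the longest transcript of the members, went against this order. Meg3, with the next longest, was also above the others, at 14.3 CPM (9.43 to 12.4). Rian, with a transcript of 8089 bases, lay within their range. Without this library the median absolute log2 fold change for genotype in neurospheres was 0.12, with a smallest edgeR adjusted p of 0.9997. Of 34 members tested, 3 had an unadjusted p under 0.05 in edgeR (Rian, Zdbf2 and Usp29). The share of all genes under that threshold was not taken for this fit, so the count has no background. The difference of Kcnq1ot1, the highest of all members at 0.95 ± 0.51 (log2, SE), went to 0.00 ± 0.15, that of Grb10 from -0.64 to -0.37 and that of Plagl1 from -0.36 to -0.24. Between Bmal1-/- sources, 17 members were higher and 16 lower of 38 without the library, in a fit that called 12486 of 14763 genes. No member lost its call, and Gnas (0.34 ± 0.13), Grb10 (-0.79 ± 0.15), Impact (-0.62 ± 0.15) and Kcnq1ot1 gained it (log2, SE). Igf2r went from -1.38 to -1.70, Commd1 from -1.64 to -1.27 and Peg3, still not called, from 0.35 to -0.17 on the log2 scale. Zdbf2 went from 1.45 to 1.06, Ppp1r9a from 1.00 to 0.69, Peg10 from -1.50 to -1.68 and Ndn from 3.12 to 3.49.

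**Figure D4:**
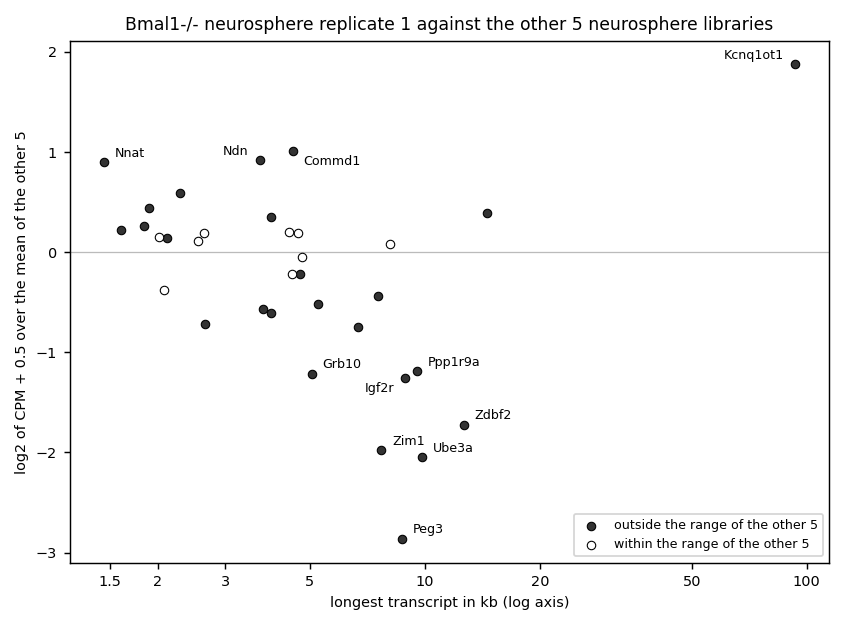
Log2 ratio of the level (CPM plus 0.5) in Bmal1-/- neurosphere replicate 1 to the mean of the other 5 neurosphere libraries (y axis) against the length of the longest GENCODE M21 transcript in kb (x axis, log scale), for the 34 imprinted genes tested; filled points lie outside the range of the other 5. Most members with long transcripts lie below 0, down to Peg3 at -2.86, while Kcnq1ot1 lies at 1.88 and Meg3 at 0.39.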

How the data were processed

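RNA-seq read counts per gene were deposited by the authors, 1 file per library, for 24411 gene symbols and 4 rows of unassigned reads, which were left out. Reads were aligned with STAR 2.7.1a to mm10, per the submitters' processing notes; the annotation was not given in the sources used here. RNA was selected with oligo dT or depleted of rRNA, per the labels' protocols, which do not say which for any library. The deposited counts that ignore strand were used, and the strand-specific columns served to check strandedness and to size the reads left out as ambiguous. Reads mapping to several places are listed at 0, so genes with near copies are undercounted.

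Each comparison was tested across all genes with edgeR 4.0.16 in R 4.3.3 (quasi-likelihood F test, robust, two-sided, TMM scaling, filterByExpr, Benjamini-Hochberg over all genes tested), on the libraries of its 2 groups, and the interaction on all 11. Called means an adjusted p under 0.05. The SE is the log2 fold change divided by the square root of F. CPM were computed here from the counts on TMM-scaled library sizes of all 11 libraries, and CPM per kb divides by the longest GENCODE M21 transcript. Alternatives were RLE scaling, no filter on low counts, DESeq2 1.42.0, 1 model of all libraries, a replicate block, each replicate left out and, added after the data were seen, the strand columns summed. Positions, microRNAs and promoter windows are from RefSeq (GRCm38.p6). The fitting code was tested on simulated data. The members and gene lists were chosen with earlier results of these data known. Values in every library are given for the 3 smallest p-values of each genotype comparison and the 6 widest source differences in each direction among members called in both genotypes; Igf2 and Snhg14 were added after their values were seen. Other genes of the lists are named where called for genotype or as 1 of the first 3 of a marker list. In the stem cell and myelin lists 1 marker each is not reported here and not in the sums.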

Additional observations from a re-analysis of the deposited data

How the results depend on the processing

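The counts of imprinted genes called changed little across the alternatives. For genotype they stayed at 0 in neurospheres (12 alternatives), in callosum (11) and for the interaction (16). Between sources the wild-type count of 32 ranged from 32 to 34, and the Bmal1-/- count of 29 from 22 to 33, lowest without either callosum replicate and highest without neurosphere replicate 1. Calls of at least 4-fold ranged from 19 to 20 (20 in the main fit) in wild type and from 15 to 19 (17) in Bmal1-/-. RLE scaling moved the median of all genes between wild-type sources from -0.06 to 0.00 on the log2 scale. Replicate numbers are shared between groups, but same-numbered neurosphere libraries did not all deviate together (correlations 0.28, -0.01 and 0.34 over genes), nor did those of callosum (0.06 and 0.03), so the numbers were not taken as pairs. With a replicate block the counts called were 0 and 0 for genotype, 32 and 31 for source and 0 for the interaction. Under that block Ube3a and Zim1 differed by -1.91 and -1.98 between Bmal1-/- sources. Genes at a few counts, such as Magel2, Slc22a18 and Phlda2, are limited by depth, and with 2 callosum libraries labelled Bmal1-/- the fits that leave out 1 of them assume that the lone library varies like the other group of the comparison, wild-type callosum for genotype and Bmal1-/- neurospheres, replicate 1 included, for source.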

Other observations

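Wild-type neurosphere replicate 1 also took extreme values. It was set against the 4 other neurosphere libraries that remain when Bmal1-/- replicate 1 is left out. It lay outside their range for 24 of the 34 members tested. The same count was 10 and 13 for wild-type replicates 2 and 3, and 4 and 17 for Bmal1-/- replicates 2 and 3. These counts were not taken over all genes, so they do not set the members apart from other genes. Wild-type neurosphere replicate 1 held the lowest H19 (31.2 CPM) and Cdkn1c (19.4 CPM) of all 6 neurosphere libraries. It also held the highest Peg12 (37.9 CPM) and Peg10 (144 CPM).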
